A study of Homo sapiens with 4 samples.

Results

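Processed transcript is the Ensembl class for spliced RNAs that belong to a gene but carry no open reading frame. The transcripts described here are those that the tables of RNA bound to beta-catenin in HT-29 and CaCo-2, both colon adenocarcinoma lines, place in this class, apart from transcripts of ANKRD30BL and of the small nucleolar RNA host genes GAS5, ZFAS1, DANCR and the SNHG genes. Of these names ANKRD30BL was present, with 1 transcript in each table. The rule left 3180 of the 19895 transcripts listed in at least 1 line. They numbered 1512 of 9880 in HT-29, under 1292 gene names, and 1966 of 11943 in CaCo-2, under 1647 gene names.

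In RNA immunoprecipitation (RIP) an antibody collects a protein from a lysate, and RNA held by that protein is sequenced. The HT-29 RIP and the CaCo-2 RIP were each made from untreated cells by lysing isolated nuclei, adding a beta-catenin antibody and collecting the complexes on protein G beads. The HT-29 input and the CaCo-2 input came from the same untreated lines and had no antibody. The study asked which long non-coding RNAs bind beta-catenin in these lines. Each group was 1 library of 1 established cancer line, so the 4 libraries give no error between replicates, and a mock precipitation was not analysed here.

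Beta-catenin joins cadherins to the actin cytoskeleton at cell junctions and, when Wnt signalling is on, enters the nucleus and activates transcription with TCF/LEF factors. In most colorectal cancers, mutation of APC or of beta-catenin itself keeps the protein from being degraded. Processed transcripts often share exons with the coding mRNA of their gene, so a read in a shared exon can be assigned to either; the level of each isoform is an estimate of how such reads divide.

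Levels are the authors' FPKM, which scales fragments by transcript length and by library size. The tables hold transcripts whose deposited RIP level exceeds input by 1.5-fold or more, with a RIP level of at least 1.31 FPKM in HT-29 and 0.842 FPKM in CaCo-2. The direction of every ratio below was therefore fixed by the selection, and others were not analysed here. Ratios are log2 of RIP plus 1 over input plus 1. Counts use transcripts that reach 1 FPKM in either library of the line, and "2-fold" means a log2 ratio of at least 1. A transcript listed at 0 in input reaches 2-fold by construction. Depth is unknown from these tables, and an input of 0 may be a failed estimate. Of 12 marker genes of colon epithelium, 9 were listed in HT-29 cells and 7 in CaCo-2. Of 4 marker genes of other cell types 0 were listed in either line; these tables hold transcripts higher in the RIP and so do not test for absence.

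Genes of the translation machinery gave several of the transcripts with the highest levels in HT-29, and EEF1A1 had the highest level of CaCo-2. The mRNAs of such genes typically begin with a run of pyrimidines, the terminal oligopyrimidine tract through which their translation is regulated. Starts of RPL7A, RPS6, RPSA, EEF1A1 and TPT1 are shown as examples of this tract, and those of EIF1 and PABPC1 are not shown. Each window shown holds the letters CTTT, which many windows of such genes lack, as counted below. Each line reads 5′ to 3′ on the gene's strand, from 30 bases before to 15 bases after the RefSeq gene start in GRCh38.p14, and the capitals mark the unbroken pyrimidine run at the start. The windows are chr9:133348188-133348232 for RPL7A (plus strand), chr9:19380222-19380266 for RPS6 (minus strand), chr3:39406690-39406734 for RPSA (plus strand), chr6:73521018-73521062 for EEF1A1 (minus strand) and chr13:45341169-45341213 for TPT1 (minus strand).
RPL7A: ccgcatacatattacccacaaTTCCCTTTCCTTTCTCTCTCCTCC
RPS6: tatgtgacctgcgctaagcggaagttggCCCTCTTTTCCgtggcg
RPSA: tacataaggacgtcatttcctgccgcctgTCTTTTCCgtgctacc
EEF1A1: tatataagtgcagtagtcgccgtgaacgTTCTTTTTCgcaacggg
TPT1: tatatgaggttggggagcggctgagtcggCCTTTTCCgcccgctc
The run was 11 bases long in RPS6, 9 in EEF1A1 and 8 in RPSA and TPT1. In RPL7A it reached the end of the window after 24 bases, so that its full length was not measured. The letters CTTT, searched on the gene's strand from 5 bases before to 10 bases after the start, were present in 11 of 18 windows of cytosolic ribosomal protein genes with a processed transcript (61.1%). They were present in 7 of 16 windows of translation factor genes with a processed transcript (43.8%) and in 208 of 2941 windows of all genes with a processed transcript (7.07%). Over all 27305 RefSeq genes with a start window, whether listed here or not, they were present in 2356 of 35116 windows (6.71%). On the other strand, read as AAAG, the motif was in 0 of the 18, 0 of the 16, 2.82% and 4.30% of the same windows. These are starts of the genes and not of the listed processed transcripts. In the deposited hg19 coordinates, the listed transcript began 2632 bases downstream of the most upstream other listed transcript of its gene for RPL7A, 1818 for RPSA, 642 for EEF1A1 and 753 for TPT1.

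Nearly all host genes encode proteins. In HT-29, 1226 of the 1292 gene names (94.9%) were protein-coding genes in RefSeq, 22 were transcribed pseudogenes, 8 long non-coding RNA genes and 28 had no match. In CaCo-2, 1567 of 1647 (95.1%) were protein-coding, 28 transcribed pseudogenes, 11 long non-coding RNA genes and 37 unmatched. Most genes gave 1 processed transcript, 1111 in HT-29 and 1388 in CaCo-2. The largest numbers were 6 for NOP56, a core protein of box C/D small nucleolar ribonucleoproteins, in HT-29, and 5 each for DLEU1, a long non-coding RNA gene, ADD3, which encodes a protein of the membrane skeleton, and CTPS1, which encodes CTP synthase, in CaCo-2. For 823 of the HT-29 transcripts (54.4%) and 974 of the CaCo-2 transcripts (49.5%), no transcript of another class was listed for the gene. This share was not computed for other classes. Over all classes, 9880 transcripts stood under 6489 gene names in HT-29 and 11943 under 7452 in CaCo-2.

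Levels were low. The median RIP level was 2.24 FPKM in HT-29 cells and 1.68 FPKM in CaCo-2 over the 1512 and 1641 transcripts that passed the filter. At least 10 FPKM in the RIP was reached by 63 transcripts in HT-29 and 10 in CaCo-2. The lower a transcript stood in the RIP, the more often its input was listed at 0. In HT-29 this held for 285 of 619 transcripts (46.0%) with a RIP level from 1 to 2 FPKM, 269 of 672 (40.0%) from 2 to 5, 36 of 158 (22.8%) from 5 to 10 and 12 of 63 (19.05%) above that. In CaCo-2 it held for 377 of 1023 (36.9%), 124 of 522 (23.8%), 13 of 86 (15.1%) and 1 of 10, in the same bins. Transcripts with input at 0 had a median RIP level of 2.04 FPKM in HT-29 cells and 1.48 in CaCo-2, and those with input above 0 had 2.43 and 1.78.

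**Figure D1:**
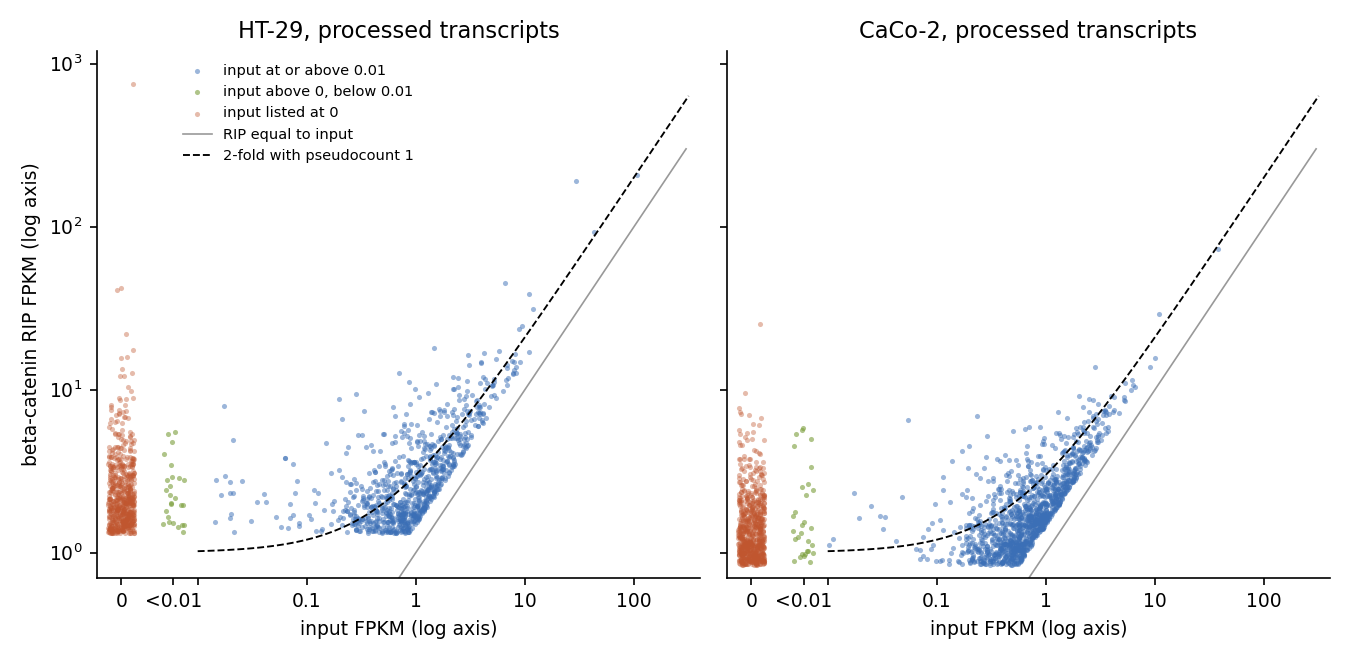
RIP level (vertical, FPKM, log axis) against input level (horizontal, FPKM, log axis) of each processed transcript in HT-29 (left) and CaCo-2 (right). Orange points at the left edge have an input listed at 0, green points an input above 0 but under 0.01 FPKM; both are spread sideways at random. The dashed line is a 2-fold ratio with a pseudocount of 1 FPKM and the grey line is equality. The lower edge of each cloud comes from the selection of transcripts in the deposited tables, and the HT-29 point at 754 FPKM is RBPMS.

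At 2-fold or more in HT-29 were 957 of 1512 processed transcripts (63.3%, 95% Wilson interval 60.8 to 65.7, which covers counting error alone), against 56.0% of all listed transcripts. Their median log2 ratio was 1.26, against 1.14 for all. In CaCo-2, 740 of 1641 (45.1%, 42.7 to 47.5) were at 2-fold, against 40.8% of all listed transcripts, with medians of 0.89 and 0.82. Of the 957, 602 had an input of 0, as had 515 of the 740. An input of 0 was listed for 39.8% of the processed transcripts and 31.8% of all transcripts in HT-29, and for 31.4% and 26.5% in CaCo-2.

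Where both libraries of a line had at least 1 FPKM, the shares lay on both sides of those of the tables. In HT-29, 110 of 403 processed transcripts were at 2-fold (27.3%, 23.2 to 31.8), against 25.2% of all listed transcripts. In CaCo-2 it was 41 of 355 (11.5%, 8.63 to 15.3), against 13.1%. Both intervals hold the share of the whole table. The median log2 ratio of the processed transcripts under this filter was 0.73 in HT-29 and 0.60 in CaCo-2.

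Set beside other classes by the share at 2-fold, processed transcripts stood near the transcripts annotated for nonsense-mediated decay, the pathway that degrades mRNAs with premature stop codons. In HT-29 the share at 2-fold was 63.3% in processed transcripts against 60.2% (56.6 to 63.8) in that class, 52.0% (49.6 to 54.4) in retained-intron transcripts and 53.2% (51.8 to 54.6) in protein-coding ones. In CaCo-2 it was 45.1% against 47.3% (43.4 to 51.2), 32.0% (30.1 to 33.9) and 42.0% (40.6 to 43.5). With at least 1 FPKM asked of both libraries, the CaCo-2 share was 11.5% in processed transcripts, against 16.1% in nonsense-mediated decay, 8.23% in retained-intron and 14.2% in protein-coding transcripts. There protein-coding transcripts stood above processed ones under this filter and below them without it. In HT-29 the same filter left 27.3% in processed transcripts, 25.3% in nonsense-mediated decay, 22.4% in retained-intron and 22.7% in protein-coding transcripts, the same order as before. With 1 library per group no difference between classes was tested.

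**Figure D2:**
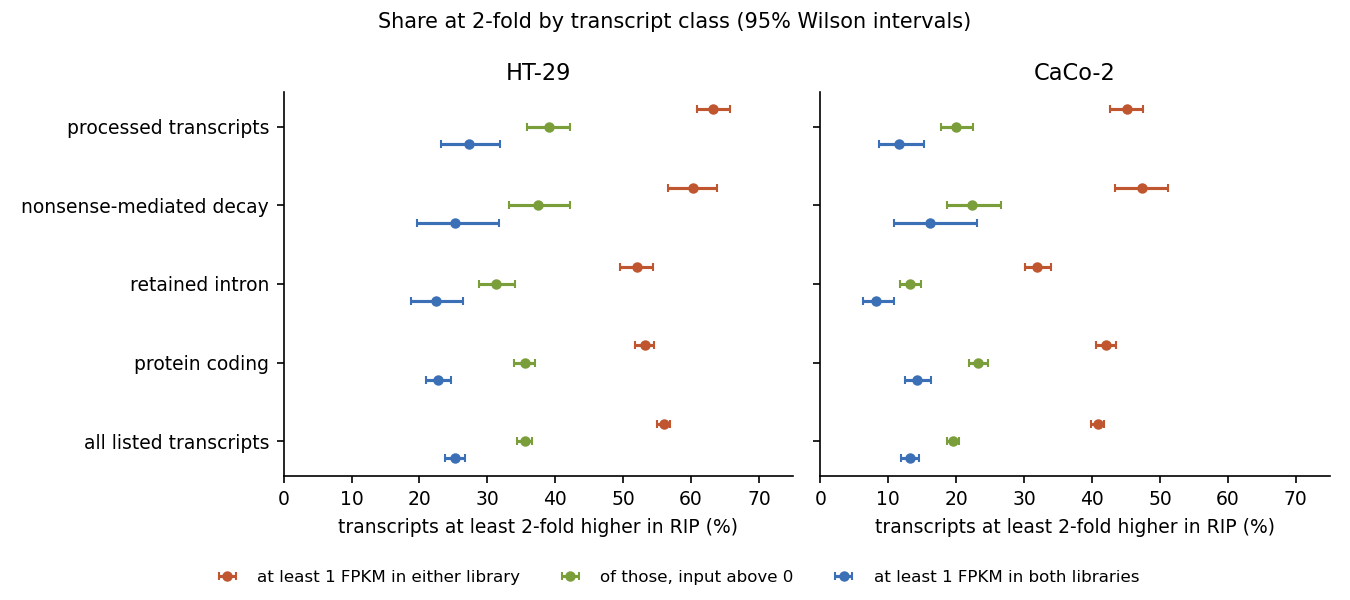
Share of transcripts at 2-fold or more (horizontal, percent) for each Ensembl class (vertical) in HT-29 (left) and CaCo-2 (right), under 3 filters on low values. Points are shares and bars are 95% Wilson intervals, which cover counting error alone. Processed transcripts lie at 63.3% and 45.1% with the filter on either library, and at 27.3% and 11.5% with 1 FPKM in both.

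In the authors' deposited table, 13 of the 1512 processed transcripts of HT-29 reach a q of 0.05 or less (0.860%, 0.503 to 1.47), against 3.08% of all transcripts listed there. For CaCo-2, the authors' deposited table gives 8 of 1966 (0.407%, 0.206 to 0.801), against 2.24% of all. In the authors' deposited table, protein-coding transcripts had such a q in 4.53% (3.98 to 5.15) of cases in HT-29 cells and 4.50% (3.96 to 5.10) in CaCo-2, and retained-intron transcripts in 0.357% (0.163 to 0.776) and 0.111% (0.0377 to 0.325). Of the 13, 11 had an input listed at 0, as had 8 of the 8 in CaCo-2. The number of transcripts in both sets was 0. The 8 of CaCo-2 were not listed for HT-29 at all, so the sets could not share a transcript. The overlap of such calls over all classes was not counted. Transcripts annotated for nonsense-mediated decay had such a q more often than processed transcripts in both lines, so the classes were not alike in this measure. These q-values come from 1 library per side and carry no replicate error.

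VPS11, which encodes a subunit of the vacuolar HOPS and CORVET tethering complexes, was at 2.22 FPKM in the RIP and listed at 0 in input (q = 0.00461 in the authors' deposited table). ALDH3B1, an aldehyde dehydrogenase, was at 12.0 FPKM in the RIP against 4.13 in input (q = 0.00505 in the authors' deposited table). RP11-51O6.1, on chromosome 16, was at 92.3 FPKM in the RIP against 42.9 in input (q = 0.00826 in the authors' deposited table). ALDH3B1 and RP11-51O6.1 were the 2 of the 13 with input above 0. The other 11 had RIP levels between 1.69 and 13.4 FPKM: beside VPS11 they were RIN2, WDR73, C1orf35, RALB, ACN9, GUK1, VBP1, SCAMP1, MRPS18B and a transcript of chromosome 17 that spans 32337 bases and carries the name hsa-mir-6080, which is not the microRNA itself. VBP1, a subunit of the chaperone prefoldin, had the highest of these levels. In CaCo-2 it was at 3.95 FPKM in the RIP against 0.421 in input, a log2 ratio of 1.80.

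The 8 of CaCo-2 lay between 1.22 and 6.10 FPKM in the RIP. RECQL4, a DNA helicase, was at 2.01 FPKM and had the lowest q, 0.000114 in the authors' deposited table. RAB25, an epithelial GTPase of the apical recycling pathway, was at 6.10 FPKM (q = 0.0329 in the authors' deposited table). The others were RP11-43F13.1, TBL2, FPGS, PLAC1, SLC35B2 and BGN.

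Processed transcripts listed for both lines numbered 298, which is 19.7% of those of HT-29 and 15.2% of those of CaCo-2. Overlap was small over all classes too. There 19895 transcripts were listed in at least 1 line, from 9880 in HT-29 and 11943 in CaCo-2. Of the 273 that passed the filter in both lines, 94 were at 2-fold in both (34.4%), against 30.0% of all listed transcripts. A further 76 were at 2-fold in HT-29 and not in CaCo-2, 38 in CaCo-2 and not in HT-29, and 65 in neither. Of the 94, 80 had input listed at 0 in at least 1 line. Input was at 0 in both lines for 52 of the 298, in HT-29 alone for 57, in CaCo-2 alone for 37 and in neither for 152. Across the 273 transcripts, which share 2 RIP and 2 input libraries, the Spearman correlation between the lines was 0.40 for the log2 ratio and 0.45 for the RIP level. With an input of 0 the ratio depends on the RIP level alone. Over the 50 with at least 1 FPKM in all 4 libraries the correlation of the log2 ratio was 0.30. Among 490 gene names with a processed transcript in both tables, 201 had none in common. The same counts over all classes were not made.

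**Figure D3:**
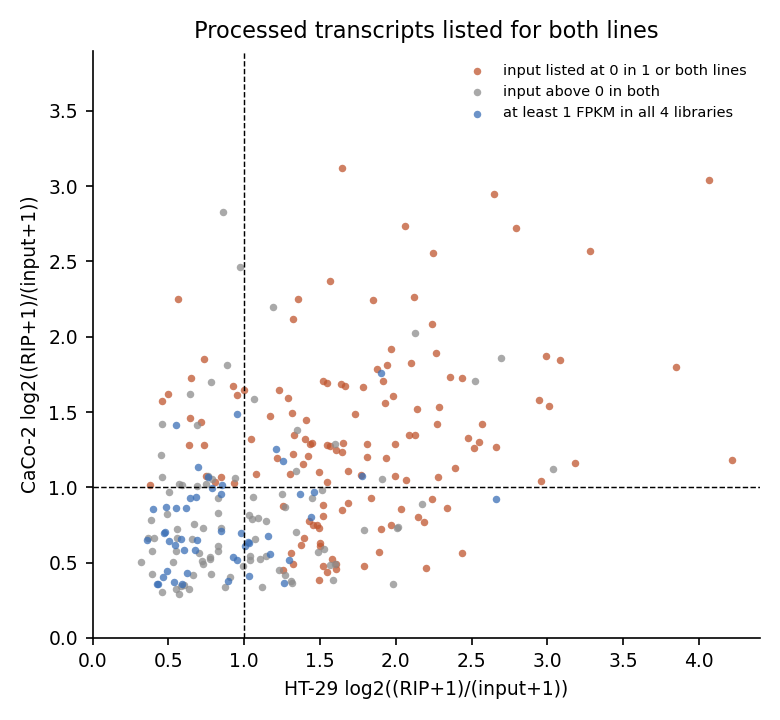
Log2 ratio of RIP to input, with a pseudocount of 1 FPKM, in HT-29 (horizontal) and CaCo-2 (vertical) for the 273 processed transcripts that passed the filter in both lines. Dashed lines mark 2-fold. Orange points have an input listed at 0 in 1 or both lines and make up 80 of the 94 points past both lines; blue points have at least 1 FPKM in all 4 libraries.

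With at least 1 FPKM in all 4 libraries, 50 processed transcripts were left, and 4 of them were at 2-fold in both lines (8%), against 12.7% of all listed transcripts. These were RPL7A, HIF1A, PSME2 and CDC42EP5. RPL7A, a protein of the large ribosomal subunit (ENST00000492798, hg19 chr9:136217705-136218268), was at 14.1 FPKM in the RIP against 3.05 in input for HT-29 cells, and at 9.16 against 1.999 in CaCo-2. Its log2 ratios were 1.90 and 1.76, so the lower of both was the highest among the 4. HIF1A, the oxygen-regulated transcription factor of the hypoxia response (ENST00000557206, hg19 chr14:62165613-62194350), was at 6.79 against 2.37 FPKM for HT-29 and 5.84 against 1.87 for CaCo-2.

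PSME2, a subunit of the PA28 proteasome activator (ENST00000471700, hg19 chr14:24612575-24615788), was at 9.27 FPKM in the RIP against 3.30 in input for HT-29 cells and at 5.35 against 1.81 in CaCo-2. CDC42EP5, an effector of the GTPase CDC42 (ENST00000472703, hg19 chr19:54982727-54984318), was at 7.25 against 1.41 FPKM for HT-29 and 7.13 against 2.86 for CaCo-2. Its RIP level was nearly the same in both lines while its input level differed, so that its log2 ratio was 1.77 in HT-29 and 1.07 in CaCo-2. In the authors' deposited table, q of these 4 lay between 0.683 and 0.971 in HT-29 and between 0.740 and 1 in CaCo-2.

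The next 6 by the lower of both ratios missed 2-fold in at least 1 line. RPS6, a small-subunit ribosomal protein phosphorylated by S6 kinase, was at 8.58 FPKM in the RIP against 2.48 in input for HT-29 cells and at 4.43 against 1.77 in CaCo-2. HIST1H3J, a histone H3 gene, was at 9.09 against 2.90 and at 9.02 against 4.18. RNF43, a ubiquitin ligase that removes Wnt receptors from the membrane and is itself a Wnt target, was at 14.2 against 6.88 for HT-29 and 8.77 against 2.48 for CaCo-2. Its log2 ratio was 0.95 in HT-29 and 1.49 in CaCo-2. EEF1A1, the elongation factor that delivers aminoacyl-tRNA to the ribosome, was at 190 FPKM in the RIP against 29.1 in input for HT-29 cells and at 73.0 against 38.0 in CaCo-2. Its log2 ratio was 2.66 and 0.92, and the authors' deposited table gives 0.999822 and 1 for its q. HNRNPR, a nuclear RNA-binding protein, and PGAM5, a mitochondrial phosphatase, completed the set with log2 ratios of 0.86 and 1.01 for HNRNPR and 0.85 and 0.95 for PGAM5.

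**Figure D4:**
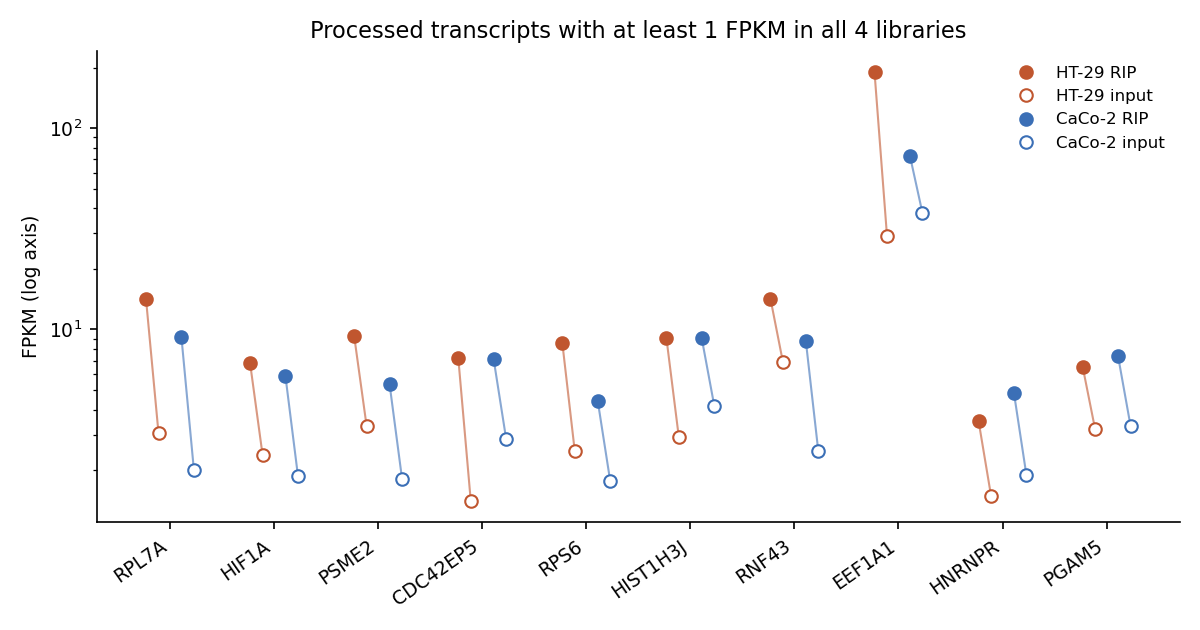
FPKM (vertical, log axis) of the 10 processed transcripts with the highest lower ratio among those with at least 1 FPKM in all 4 libraries. Filled circles are RIP and open circles input, joined by a line, in HT-29 (orange) and CaCo-2 (blue); each circle is 1 library. EEF1A1 lies far above the other 9 in all libraries, and RIP lies above input throughout, as the tables' selection requires.

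EEF1A1, ACTB and the ribosomal protein genes have many near-identical copies in the genome. How reads were shared among such copies is not given in the sources used here, so the levels of their transcripts are uncertain.

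With the filter on either library, the 10 highest by the lower of both ratios were all transcripts with an input of 0.287 FPKM or less in each line. ACTB, which encodes beta-actin (ENST00000473257), was at 15.7 FPKM in the RIP of HT-29 and 7.24 in the RIP of CaCo-2, with both inputs listed at 0. PTPN4, a tyrosine phosphatase, was at 5.93 FPKM in the RIP against 0 in input for HT-29 cells and at 5.61 against 0.00219 in CaCo-2. CCNY, a membrane-bound cyclin, was at 6.57 against 0.209 for HT-29 and at 6.73 against 0 for CaCo-2. RIP levels of PTPN4 and CCNY were thus within 1 FPKM of each other in the 2 lines. The transcriptional coactivator gene SUB1 was at 8.71 against 0 and at 4.95 against 0.00106. The remaining 6 had RIP levels from 2.78 to 5.66 FPKM over both lines. They were CHD2, a chromatin remodeller, TMED3, a cargo receptor of the early secretory pathway, DAPK1, a death-associated kinase, IL6ST, the shared signalling receptor gp130 of the IL-6 family, TTLL5, a tubulin glutamylase, and FARP1.

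In HT-29 1 transcript stood far above all others in the RIP. RBPMS, an RNA-binding protein gene (ENST00000521816), was at 754 FPKM in the RIP and listed at 0 in input (q = 0.725 in the authors' deposited table). It was not listed among the processed transcripts of CaCo-2. S100P, a calcium-binding protein of epithelial cancers, followed at 207 FPKM in the RIP against 106 in input, and then EEF1A1 and RP11-51O6.1. METTL12, a mitochondrial methyltransferase gene, was at 44.9 against 6.56 FPKM through a transcript that spans 376 bases. TPT1, the translationally controlled tumour protein, was at 42.2 FPKM and ANKRD10 at 40.7, both with input listed at 0, and the authors' deposited table gives a q of 0.628 and 0.789. EIF1, which guides start codon selection, was at 38.7 against 10.9 FPKM, LMNA, the gene of nuclear lamins A and C, at 31.3 against 11.8, and the peroxiredoxin gene PRDX6 at 24.6 against 9.47. LMNA was also listed in CaCo-2, at 1.82 FPKM in the RIP against 0.733 in input.

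Among HT-29 transcripts that reached 1 FPKM in both libraries, GNAS had the highest ratio. This gene encodes the stimulatory G protein alpha subunit, and its transcript ENST00000480975 was at 17.9 FPKM in the RIP against 1.46 in input, a log2 ratio of 2.94. A second GNAS transcript, ENST00000488546, was at 12.7 FPKM with input listed at 0. In CaCo-2 ENST00000480975 was at 1.99 FPKM in the RIP and listed at 0 in input. EEF1A1 and METTL12 came next, at 2.66 and 2.60, then the ubiquitin-conjugating enzyme gene UBE2D3 at 2.27. HSD17B12, an enzyme of fatty acid elongation, MORF4L2, a subunit of the NuA4 acetyltransferase complex, PLEKHA6, LRBA, RPL7A and EXOC4, a subunit of the exocyst, lay between 2.21 and 1.89. Of the 10, RPL7A and EEF1A1 were also among the 10 of the all-library set above. Input listed at 0 in HT-29 and a RIP level of at least 12 FPKM were also recorded for RPSA, a small-subunit ribosomal protein, at 21.9 FPKM, and for the nuclear import receptor KPNB1 at 12.2 FPKM.

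In CaCo-2, EEF1A1 at 73.0 FPKM was followed by ACTB, through a different transcript (ENST00000464611), at 29.0 FPKM in the RIP against 10.9 in input. TANGO2 was at 25.4 FPKM with input listed at 0 (q = 0.856 in the authors' deposited table). TAF10, a subunit shared by the TFIID and SAGA complexes, was at 15.7 against 9.94 FPKM and BIN1, a membrane-bending protein, at 13.8 against 9.09. PTPRK, a receptor tyrosine phosphatase of cell contacts, was at 13.8 against 2.81 and had the highest ratio of CaCo-2 transcripts that reached 1 FPKM in both libraries, 1.96. ATP5F1, the b subunit of ATP synthase, came next, at 7.32 FPKM in the RIP against 1.30 in input. The ratios that followed belonged to RPL7A, HIF1A (a second transcript, ENST00000553999, at 6.73 against 1.56 FPKM), GTF2I, RNF43, TLK1, CREB3, ACSF2 and COX4I1, from 1.76 down to 1.36. After TANGO2, the highest RIP levels with input listed at 0 were QPRT, an enzyme of NAD synthesis, at 9.53 FPKM, and UBE2S, the chain-elongating enzyme of the anaphase-promoting complex, at 7.70 FPKM. UBE2S was listed at 0 in the HT-29 input too, with 2.13 FPKM in the RIP.

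Grouped by the function of the host gene, the processed transcripts are described below by list. Each list is to be read beside all processed transcripts, of which 63.3% in HT-29 cells and 45.1% in CaCo-2 were at 2-fold. Over all listed transcripts the shares were 56.0% and 40.8%. With at least 1 FPKM in both libraries, they were 27.3% and 11.5% of processed and 25.2% and 13.1% of all listed transcripts. The cytosolic ribosomal proteins gave 10 of 18 transcripts at 2-fold in HT-29, with a median log2 ratio of 1.41, and 5 of 14 in CaCo-2, with 0.94. Beside RPL7A and RPSA, HT-29 listed RPL8 at 9.76 FPKM in the RIP against 2.92 in input. Mitochondrial ribosomal proteins had 3 of 7 transcripts at 2-fold in HT-29 cells and 6 of 12 in CaCo-2, with medians of 0.96 and 0.95. MRPL52 was at 7.31 FPKM in the RIP of HT-29 with input listed at 0, and MRPS16 at 12.5 against 7.84. Translation factors gave 12 of 17 at 2-fold in HT-29 (median 1.505) and 4 of 7 in CaCo-2 (1.05). PABPC1, the cytoplasmic poly(A)-binding protein, was at 23.5 FPKM in the RIP of HT-29 against 8.78 in input.

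Genes of the respiratory chain and ATP synthase had the highest list median in HT-29 among the 15 lists with at least 5 transcripts in each line. There 14 of 17 were at 2-fold with a median of 1.78, and in CaCo-2 8 of 14 with 1.12. UQCR11, a subunit of complex III, was at 17.6 FPKM in the RIP of HT-29 with input listed at 0, and at 8.11 FPKM in the RIP against 3.02 in input of CaCo-2. UQCRQ, also of complex III, was at 15.7 FPKM in the RIP of HT-29 with input listed at 0. NDUFS3, of complex I, was at 10.05 against 4.34. Of the 17, 7 had an input listed at 0, and among those that reached 1 FPKM in both libraries 2 of 4 were at 2-fold in HT-29 cells and 3 of 7 in CaCo-2.

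Chromatin regulators had 15 of 17 transcripts at 2-fold in HT-29 (median 1.57) and 13 of 18 in CaCo-2 (1.30, the highest list median there among the same 15). In 10 of these 17 transcripts in HT-29 and 7 of these 18 in CaCo-2 the input value was 0 FPKM. Of those that reached 1 FPKM in both libraries 3 of 4 were at 2-fold in HT-29 cells and 1 of 3 in CaCo-2. CHD4, the remodeller of the NuRD complex, was at 9.76 FPKM in the RIP of HT-29 with input listed at 0, and RBBP4, a histone chaperone, at 6.89 against 1.65. KDM2A, a histone demethylase, was at 2.67 against 0.560 in CaCo-2. In HT-29, 15 of 15 cell cycle transcripts were at 2-fold (median 1.55), of which 12 had an input at 0; in CaCo-2 it was 7 of 12 (1.03). MKI67, the proliferation marker, was at 3.86 FPKM in the RIP against 0 in input for HT-29 cells and at 2.98 against 0.899 in CaCo-2, and CHEK1, a checkpoint kinase, at 3.64 against 0.380 in CaCo-2.

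RNA processing genes were represented by many transcripts. Splicing factors had 17 of 29 at 2-fold in HT-29 (median 1.15) and 14 of 34 in CaCo-2 (0.74). SF1, the branch point binding protein, was at 14.6 FPKM in the RIP of HT-29 against 3.97 in input. NONO, a paraspeckle protein, was at 7.13 against 3.002 FPKM for HT-29 and at 8.62 against 5.19 for CaCo-2. RNA helicases, export factors and nucleoporins had 12 of 14 at 2-fold in HT-29 cells and 14 of 28 in CaCo-2 (1.02). In 5 of these 14 transcripts in HT-29 and 13 of these 28 in CaCo-2 the input value was 0 FPKM. Of those that reached 1 FPKM in both libraries 5 of 5 were at 2-fold in HT-29 cells and 0 of 6 in CaCo-2. DDX5, a helicase of transcription and splicing, was at 7.41 against 1.66 FPKM in HT-29 cells, and TNPO1, a nuclear import receptor, at 5.72 against 2.22 for HT-29 cells and 4.84 against 0.945 for CaCo-2.

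The Wnt pathway and beta-catenin complex list held 10 transcripts in HT-29, 7 at 2-fold with a median of 1.20, and 12 that passed the filter in CaCo-2, 8 at 2-fold with a median of 1.07. Besides RNF43, the highest levels were those of BCL9L, a nuclear cofactor of beta-catenin, at 6.38 FPKM in the RIP against 2.33 in input for HT-29, and the corepressor CTBP1, at 2.56 FPKM in the RIP of HT-29 with input listed at 0. In 5 of the 10 and 5 of the 12 cases input was at 0. Of those that reached 1 FPKM in both libraries, 1 of 3 were at 2-fold in each line, which was BCL9L in HT-29 cells and RNF43 in CaCo-2. Of the Wnt target list, RNF43 and BMP4 were the genes with a processed transcript, and 0 of 2 were at 2-fold in HT-29 cells and 1 of 1 in CaCo-2. BMP4, a secreted growth factor, was at 4.21 against 1.85 FPKM in HT-29. CDH1, which encodes E-cadherin, the junction partner of beta-catenin, was at 1.72 FPKM in the RIP of HT-29 with input listed at 0.

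Among the same 15 lists, the lowest medians in both lines were those of zinc finger genes and named long non-coding RNA genes. Zinc finger genes had 15 of 34 transcripts at 2-fold in HT-29 cells (median 0.95) and 12 of 33 in CaCo-2 (0.70). Of those that reached 1 FPKM in both libraries, 0 of 7 and 0 of 6 were at 2-fold. The share of all processed transcripts under that filter was 27.3% and 11.5%. Transcripts of other classes of the zinc finger genes had nearly the same medians, 0.95 and 0.71. Long non-coding RNA genes had 3 of 7 at 2-fold in HT-29 cells (0.65) and 2 of 10 in CaCo-2 (0.58). Their transcripts of other classes had medians of 0.89 and 0.64. DLEU1, a long non-coding RNA gene next to a region often deleted in leukaemia, had a transcript (ENST00000485007) at 3.10 FPKM in the RIP against 0.423 in input for HT-29 cells and at 3.52 against 2.004 in CaCo-2. DLEU2, its neighbour on the other strand, was at 2.12 against 0.223 and at 0.863 against 0.310. Library strandedness is not given in the sources used here, so reads of overlapping genes on opposite strands may not be separable. The proteasome and ubiquitin list had 18 of 22 at 2-fold in HT-29 cells (1.32) and 11 of 24 in CaCo-2 (0.75). SLC transporters had 20 of 29 (1.41) and 14 of 31 (0.81), protein folding and endoplasmic reticulum genes 6 of 7 (1.31) and 7 of 11 (1.09), and actin, myosin and tubulin genes 6 of 10 (1.21) and 4 of 8 (1.14). Epithelial junction and keratin genes had 2 of 2 at 2-fold in HT-29 cells and 1 of 2 in CaCo-2, and plasma proteins, apolipoproteins and serpins 1 of 1 and 2 of 5. ALB, which encodes serum albumin, was at 3.09 FPKM in the RIP of CaCo-2 with input listed at 0.

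**Figure D5:**
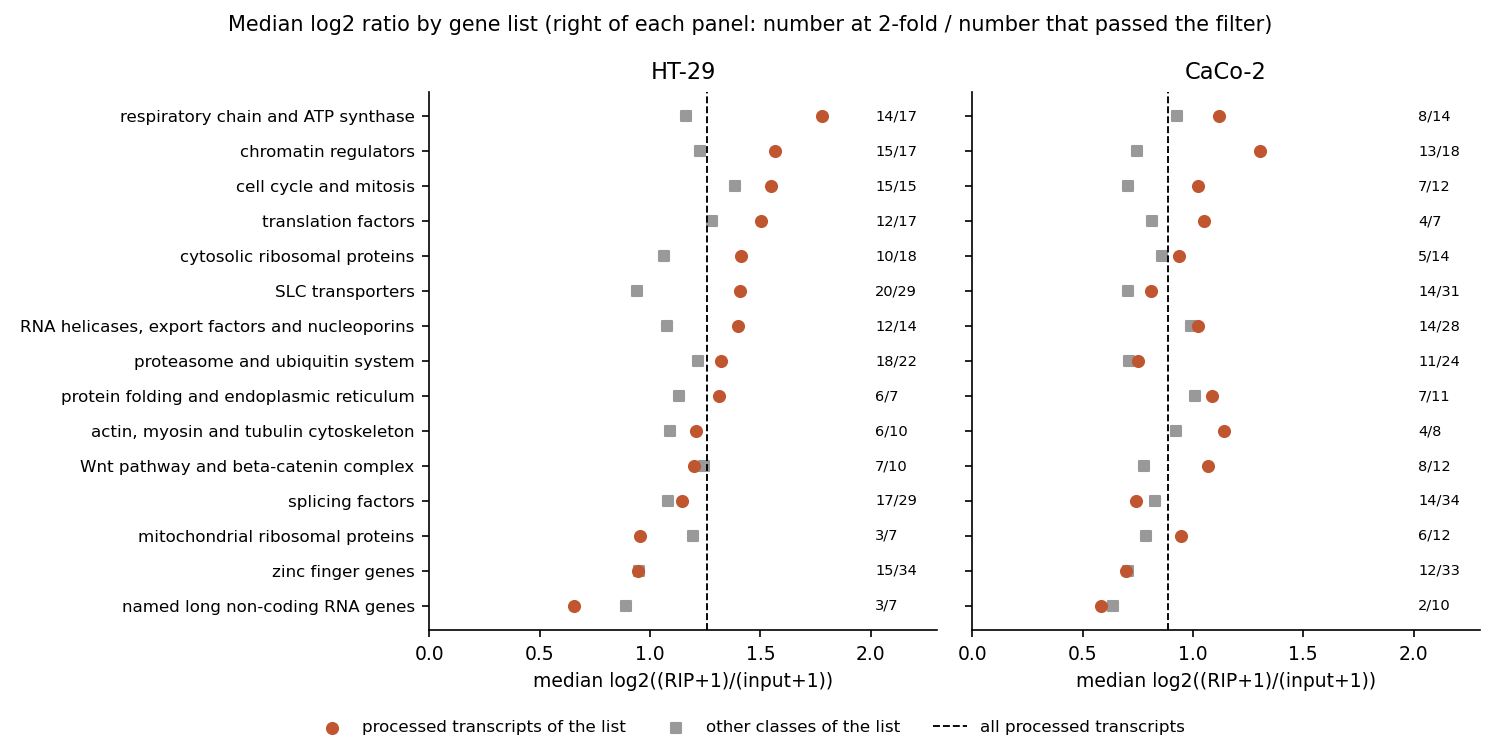
Median log2 ratio of RIP to input, with a pseudocount of 1 FPKM (horizontal), for the 15 gene lists with at least 5 processed transcripts in each line (vertical). Orange circles are the processed transcripts of a list, grey squares the transcripts of other classes of the same list, and the dashed line all processed transcripts, at 1.26 in HT-29 (left) and 0.89 in CaCo-2 (right). Numbers at the right of each panel are transcripts at 2-fold out of those that passed the filter; no list was tested.

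Processed transcripts were also set against the protein-coding transcripts of the same gene, taking for each class the transcript with the highest RIP level. Of 472 genes with both in HT-29, the processed transcript had the higher log2 ratio in 287 (60.8%), with medians of 1.33 for processed and 0.99 for coding transcripts. Its RIP level was the higher one in 173 of the 472, with medians of 2.40 and 3.36 FPKM. Of 467 genes in CaCo-2, the ratio was higher in 262 (56.1%), with medians of 0.998 and 0.82, and the RIP level in 204, with medians of 1.74 and 2.06 FPKM. Where both transcripts had at least 1 FPKM in both libraries, the processed transcript had the higher ratio in 39 of 71 genes in HT-29 and in 28 of 48 in CaCo-2. Since isoform levels of 1 gene are estimated together and the tables list isoforms higher in the RIP, these counts are a description.

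Starts were compared for processed transcripts whose gene had another listed transcript. Of the 1153 such transcripts of 1512 in HT-29, taking the other transcript from either table, 711 (61.7%) began at least 100 bases downstream of the most upstream one, 253 within 100 bases of it and 189 at least 100 bases upstream. In CaCo-2 it was 993 (66.1%), 268 and 241 of 1502. At least 1000 bases downstream lay 579 in HT-29 and 811 in CaCo-2. Each start was set against the most upstream of the gene's other listed transcripts. With several of these, a downstream start was favoured by construction. Other classes were not counted in this way, so whether downstream starts are particular to processed transcripts was not tested. The share at 2-fold was 66.4% (62.8 to 69.8) for downstream starts, 62.8% (56.7 to 68.6) for starts within 100 bases and 57.7% (50.5 to 64.5) for upstream starts in HT-29. In CaCo-2, over those that passed the filter, it was 46.0% (42.6 to 49.4), 48.5% (42.2 to 54.9) and 41.4% (34.8 to 48.3). Neighbouring intervals overlapped in both lines. The median genomic span, introns included, was 8315.5 bases in HT-29 cells and 7162 in CaCo-2, and the length without introns was not analysed here.

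Few processed transcripts overlapped a listed small RNA on the same strand. Overlap was taken over the genomic span from transcript start to end, introns included, so it does not show that a small RNA lies in the spliced transcript. There were 11 of 1512 in HT-29 cells (0.728%, 0.407 to 1.30) and 6 of 1966 in CaCo-2 (0.305%, 0.140 to 0.664), against 48 of 4898 (0.980%) and 50 of 5138 (0.973%) protein-coding transcripts. Retained-intron transcripts had shares of 1.01% and 0.295%, and nonsense-mediated decay transcripts 1.14% and 0.904%. Without filter, protein-coding spans had medians of 17854.5 and 19115.5 bases, against 8315.5 and 7468 in processed transcripts. An effect of span on these shares was not tested. The span of the TPT1 transcript, at 42.2 FPKM in the RIP of HT-29, holds SNORA31, a guide of pseudouridylation, which was at 5214 FPKM in the RIP against 351 in input. The start of the span of the RPL7A transcript ENST00000492798 overlaps SNORD36C, a guide of ribosomal RNA methylation, which was at 15128 FPKM in the RIP of HT-29 and listed at 0 in input. A second RPL7A transcript whose span holds the whole of SNORD36C, ENST00000489392, was at 3.85 against 1.56 FPKM. In NOP56, the spans of 3 of the 6 transcripts overlapped SNORA51, at 215 against 88.3 FPKM, and these 3 had RIP levels of 6.66, 4.23 and 2.92 FPKM. The part of reads from these small RNAs in the levels of their hosts was not tested.

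Within genes that gave several processed transcripts, the ratios varied. The 6 of NOP56 in HT-29 had log2 ratios from 0.44 to 2.39, the highest being the transcript with input listed at 0, and the other 5 were below 2-fold. The 4 of ANKRD10 had RIP levels of 40.7, 7.12, 4.95 and 1.89 FPKM, against inputs of 0, 4.13, 1.69 and 0.255. The 4 of ATXN1, the gene expanded in spinocerebellar ataxia, had log2 ratios from 0.39 to 2.08. In CaCo-2 the 5 of ADD3 had RIP levels from 1.15 to 3.64 FPKM and log2 ratios from 0.49 to 1.35. The 4 of IGF2BP3, an oncofetal mRNA-binding protein, had RIP levels of 7.31, 5.12, 1.41 and 1.07 FPKM, against inputs of 3.54, 0, 0.00232 and 0.512. The IGF2BP3 transcript with the highest RIP level, ENST00000497563, thus had a lower ratio, 0.87, than the next, ENST00000468263, whose input was listed at 0.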

How the data were processed

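RNA from beta-catenin RIP and input libraries of HT-29 and CaCo-2 was analysed, 1 library per group. Per the submitters' processing notes, the build was hg19 and the tools were Cuffdiff, Cufflinks, TopHat2 2.0.8, Bowtie2 and CASAVA 1.4; settings and strandedness were not given in the sources used here. The deposited tables give FPKM per transcript, normalised by the authors, with a log2 fold change, a p-value and a q-value by the authors from 1 library per side. Sample columns left unmapped numbered 0. Deposited starts count from 0: end minus start equals the RefSeq hairpin length for 14 of 16 microRNA entries. Coordinates are printed from 1.

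From these values the log2 ratio with a pseudocount of 1 FPKM, its 2-fold counts and 95% Wilson intervals were computed with Python 3.11.15, pandas 2.3.3, numpy 2.4.6 and scipy 1.17.1. The pseudocount understates ratios of low transcripts. The counting was run on simulated data with planted ratios past the threshold and all other ratios unchanged, which checks its arithmetic alone. Each planted transcript had signal in input, so transcripts without input signal were not covered. No p-value was computed. Small RNAs were the listed snoRNA, snRNA, miRNA, rRNA and misc_RNA entries, and entries of any class whose gene name begins with SNOR or SCARNA. Current symbols, biotypes and start sequences come from RefSeq GRCh38.p14.

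The transcripts, the 18 gene lists and the alternatives were chosen with earlier results of these data known. Transcripts were named by rule: per line, the 10 highest ratios with 1 FPKM in both libraries, the 10 highest RIP levels with input at 0, the 10 highest RIP levels, those with a deposited q-value at or below 0.05 and the 5 genes with most transcripts; the 10 highest by the lower ratio of both lines, overall and with 1 FPKM in all 4 libraries; and up to 4 per list. Names of pseudogenes were not used. One gene that the rule names is not reported here. RPL7A ENST00000489392 was named after its values were seen, for its small RNA.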

Additional observations from a re-analysis of the deposited data

How the results depend on the processing

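With a pseudocount of 0.1 FPKM, 1225 processed transcripts of HT-29, 1167 of CaCo-2 and 164 in both lines were at 2-fold, with median log2 ratios of 2.37 and 1.59. With at least 1 FPKM in both libraries the counts were 110, 41 and 4 and the medians 0.73 and 0.60. Without transcripts listed at 0 in input the counts were 355, 225 and 14 and the medians 0.88 and 0.65. Most of the 957, 740 and 94 transcripts counted as 2-fold thus rest on inputs at 0 by the construction of the ratio. No filter, 1 transcript per gene name (830, 647 and 70) and a span of at least 300 bases (955, 738 and 93) left the counts within 1.5 times and the medians within their intervals of 1.23 to 1.30 and 0.84 to 0.93. No direction could reverse, since the tables list transcripts higher in the RIP. No paired analysis was possible because the labels give no replicate numbers and each group is 1 library. Depth is unknown, so the number of fragments behind a level near 1 FPKM cannot be given.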
